A study of Mus musculus with 4 samples.

Results

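The genes of 10 amino acid transporters of the plasma membrane were followed in mouse gastrocnemius, the large calf muscle. They were taken from a list of names, each read by the brightest array cluster annotated to that gene alone, and make up 10 of 22180 genes on the array. They are Slc7a5, Slc7a8, Slc3a2, Slc43a1, Slc38a1, Slc38a2, Slc38a4, Slc7a2, Slc1a5 and Slc1a3. Muscle came from wild-type (WT) mice and from mice without the transcription factor KLF15 in skeletal muscle (KO), 3 weeks after treatment with vehicle or with streptozotocin (STZ), a toxin of pancreatic beta cells that makes mice diabetic. STZ was given into the peritoneum at 50 mg/kg on each of 5 days, in sodium citrate of 50 mM and pH 4.5, and vehicle mice got the citrate alone. Each of the 4 groups, WT vehicle, WT STZ, KO vehicle and KO STZ, has 1 Affymetrix array. The Cre line or promoter behind the knockout, the age and sex of the mice and whether an array holds RNA of several mice were not stated in the sources used here.

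Muscle fibres take up amino acids for protein synthesis and release others, mainly glutamine and alanine, when protein is broken down. System L exchangers move large neutral amino acids such as leucine and work as a pair of a light chain and the heavy chain encoded by Slc3a2. System A transporters of the SLC38 family use the sodium gradient to bring in small neutral amino acids and glutamine, which can then leave in exchange for leucine. In muscle, KLF15 is known to drive genes that break down amino acids, and insulin is known to raise system A transport.

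With 1 array per group no difference has a replicate check, no test was run, and the number of arrays limits the precision. Higher and lower below describe single arrays. In bulk muscle, fewer cells of a type and less RNA per cell cannot be told apart. Median intensity over all clusters ran from 5.73 to 5.96 across the arrays. Klf15 itself read 50.5 with vehicle and 72.1 with STZ in WT, and 19.8 and 16.04 in KO, so it was lower on both KO arrays. All 10 muscle fibre markers were above the level filter, at intensities from 1187 to 8549, and 0 of 10 differed by 1.5-fold in any pairwise comparison. All 5 T cell markers lay under the filter.

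Slc7a8 was the only member that differed by 1.5-fold or more in any of the 4 pairwise comparisons, and it did so in WT muscle, where it was lower after STZ. On the scale of log2(intensity + 3.69), 1.5-fold is a difference of 0.585. Of the members, 9 passed the level filter, a mean level above that of the median cluster, and Slc1a3 did not. In WT STZ against WT vehicle 0 members were 1.5-fold higher and 1 was lower, where 1.27% of 13258 genes were higher and 0.445% lower. In KO STZ against KO vehicle 0 members passed in either direction, where 0.445% of genes were higher and 0.656% lower.

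The genotype comparisons held no member past 1.5-fold. For KO against WT under vehicle the background was 0.581% of genes higher and 0.777% lower. Under STZ it was 0.845% higher and 2.81% lower. For the difference between the STZ effects of KO and WT it was 1.76% higher and 3.91% lower, again with 0 members. With so few genes past 1.5-fold on these arrays, a count of 0 among 10 members is close to what all genes show.

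**Figure D1:**
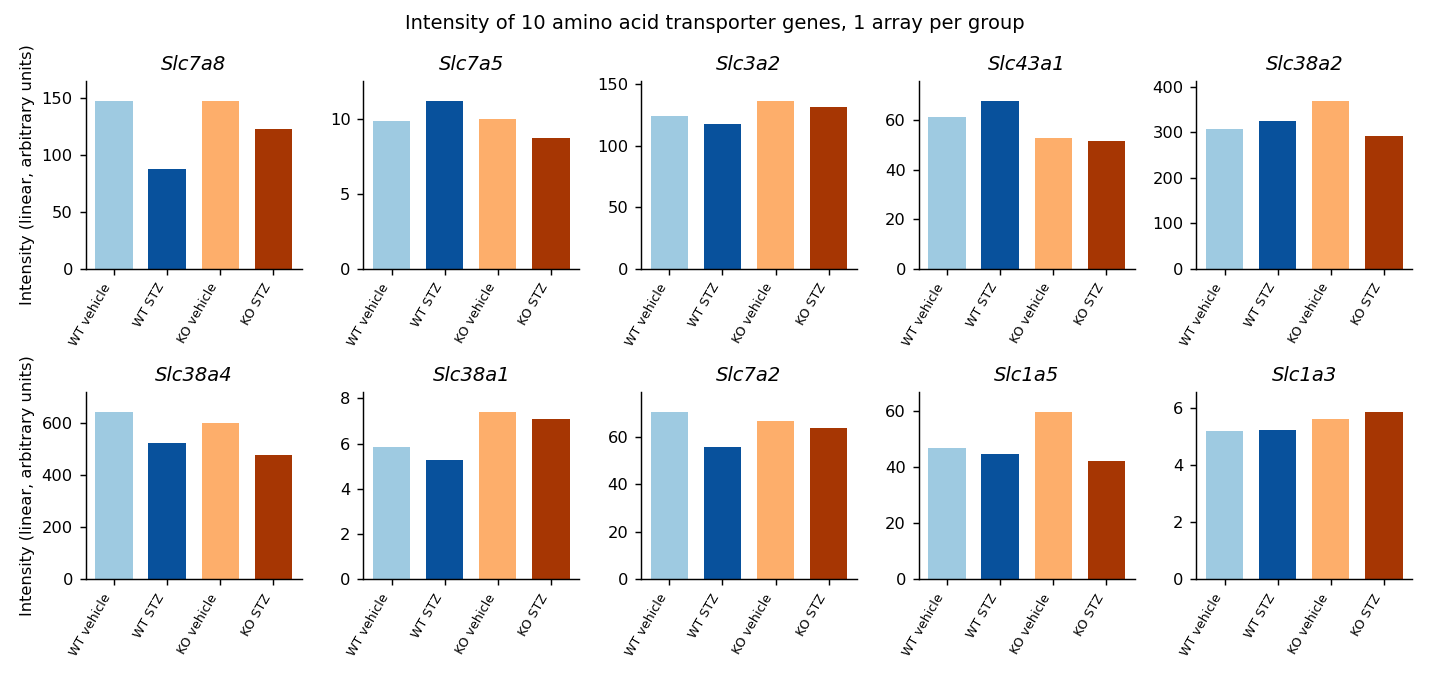
Intensity (linear, arbitrary units, each axis starting at 0) of the 10 transporter genes on the 4 arrays, 1 bar per array. Slc7a8 is lowest on the WT STZ array, at 87.4, and Slc43a1 is lower on both KO arrays than on both WT arrays.

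**Figure D2:**
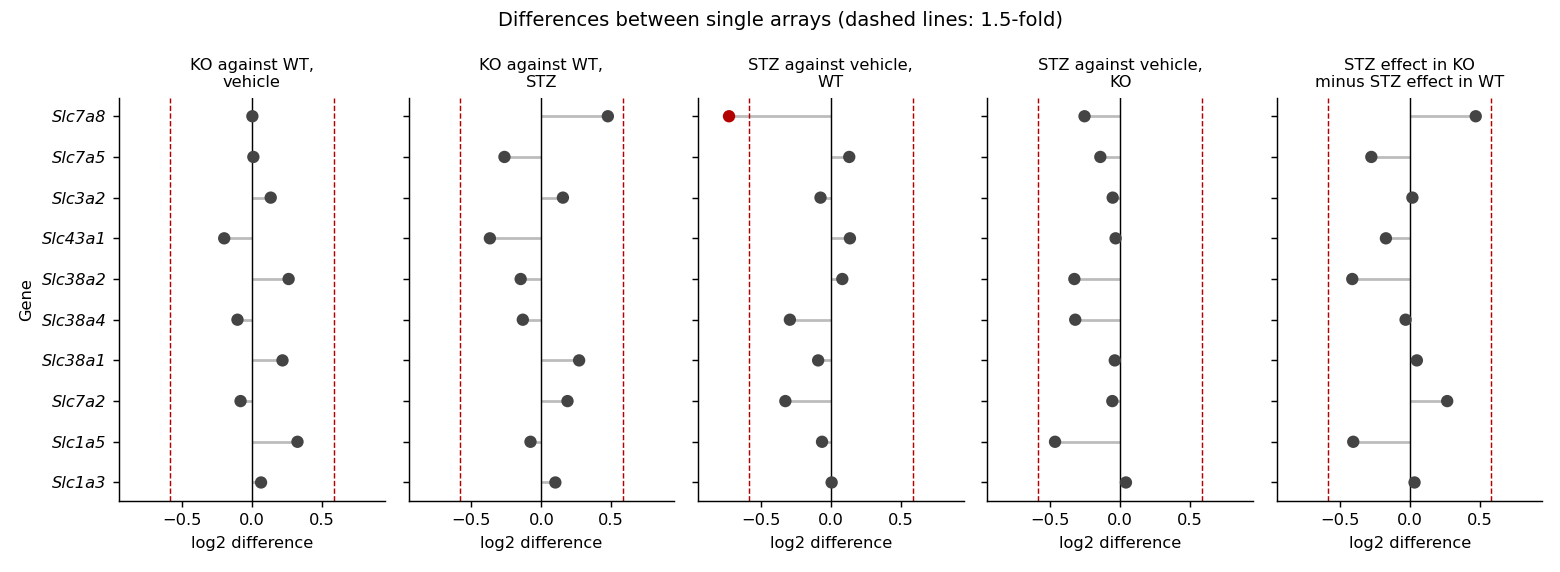
The log2 differences of the 10 genes (rows) in the 4 pairwise comparisons and in the difference between STZ effects, with dashed lines at 1.5-fold. A single point, Slc7a8 at -0.73 in WT STZ against WT vehicle, lies beyond a dashed line.

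Slc7a8 encodes LAT2, a system L light chain that exchanges neutral amino acids of small and large size. Its intensity was 147 with vehicle and 87.4 with STZ in WT, and 148 and 123 in KO. The vehicle arrays of both genotypes were nearly equal, and the WT STZ array stood alone at the bottom. WT STZ was at 59.4% of WT vehicle, a log2 difference of -0.73, which was the 19th lowest among 13258 genes. KO STZ was at 83.4% of KO vehicle, a log2 difference of -0.26. The lower reading after STZ was therefore smaller in KO, by 0.47 on the log2 scale, a difference that was not tested.

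Under vehicle, KO and WT differed in Slc7a8 by a log2 difference of 0.0032. Under STZ the KO array was at 141% of WT, a difference of 0.48 that fell short of 1.5-fold but lay above the central 95% of genes. That value became 0.63 with quantile normalization and 0.61 with a lowess trend removed, both past 1.5-fold. The difference between STZ effects likewise became 0.61 and 0.59 under these settings. The summed intensity of 5 Schwann cell markers, 3 of them above the filter, was 236 with vehicle and 198 with STZ in WT, and 201 and 187 in KO. The sum was thus lower with STZ in both genotypes and lowest in KO STZ. The 3 markers above the filter were all below 0 for STZ in WT, with a median log2 difference of -0.16. For STZ in KO their median was 0.11, with 2 above 0 and 1 below. For KO against WT under STZ it was 0.053, again with 2 above 0 and 1 below. The sum and these medians thus differed in direction outside STZ in WT. The 10 muscle fibre markers had a median log2 difference of -0.020 in WT STZ. The part of other cell types in the Slc7a8 result was not tested.

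The sequences before the start of Slc7a8, Slc43a1 and Slc38a2 are shown because these members had extreme log2 differences: Slc7a8 the lowest for STZ in WT, Slc43a1 the lowest for KO against WT under both treatments and Slc38a2 the lowest difference between STZ effects. Slc1a5, lowest for STZ in KO and highest for KO against WT under vehicle, had no window in the table. Each is the 250 bases upstream of the start in RefSeq's table for GRCm38.p6, 5′ to 3′ on the gene's strand. The Slc7a8 window is chr14:54781887-54782136 on the minus strand, that of Slc43a1 is chr2:84840073-84840322 on the plus strand, and that of Slc38a2 is chr15:96699729-96699978 on the minus strand. Capitals mark CACCC or its complement GGGTG, the CACCC box that KLF factors can bind.
Slc7a8: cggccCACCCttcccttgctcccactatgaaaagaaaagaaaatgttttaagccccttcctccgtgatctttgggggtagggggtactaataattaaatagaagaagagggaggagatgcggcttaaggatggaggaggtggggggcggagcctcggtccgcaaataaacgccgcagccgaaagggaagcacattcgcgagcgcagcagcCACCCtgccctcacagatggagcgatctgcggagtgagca
Slc43a1: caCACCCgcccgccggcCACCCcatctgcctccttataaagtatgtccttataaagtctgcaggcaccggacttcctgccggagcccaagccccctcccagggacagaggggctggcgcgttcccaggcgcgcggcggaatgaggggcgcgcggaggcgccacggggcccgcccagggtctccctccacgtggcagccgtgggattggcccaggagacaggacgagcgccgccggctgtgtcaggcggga
Slc38a2: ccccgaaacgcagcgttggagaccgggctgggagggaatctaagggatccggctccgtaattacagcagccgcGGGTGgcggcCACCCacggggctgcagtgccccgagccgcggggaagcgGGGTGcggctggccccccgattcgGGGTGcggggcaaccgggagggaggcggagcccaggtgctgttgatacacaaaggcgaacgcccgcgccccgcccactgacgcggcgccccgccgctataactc

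The Slc7a8 window held 2 CACCC boxes, that of Slc43a1 held 2 and that of Slc38a2 held 4. Such a box is common: 52.0% of 32851 upstream windows of the same length had at least 1 on either strand. Of the members, 6 had windows in the table, 8 windows in all, and the others are Slc7a5, Slc7a2, Slc38a1 and Slc1a5. The Slc1a3 window held 3 boxes and the Slc3a2 window 0. For Slc38a4, 1 of 3 windows held 1 box. GTAAACA, the core that FOXO factors bind, and TGATGNAA, a core of the element that ATF4 and C/EBP factors share, matched 0 of the 8 windows on either strand, while 3.17% and 3.45% of all windows held them. As no window held either core, no match overlapped a CACCC box. These are letter matches and say nothing of binding.

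Slc7a5 encodes LAT1, the system L light chain best known for bringing leucine into cells. It was dim, at 9.93 with vehicle and 11.2 with STZ in WT, and 10.02 and 8.74 in KO. WT STZ was the highest array and KO STZ the lowest. STZ differed from vehicle by a log2 difference of 0.13 in WT and -0.14 in KO, and KO differed from WT by -0.26 under STZ. At this level the offset dampens differences, and KO STZ was at 77.8% of WT STZ by plain intensity.

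Slc3a2 encodes the heavy chain, CD98 or 4F2hc, which carries LAT1 and LAT2 to the membrane. It read 124 with vehicle and 117 with STZ in WT, and 136 and 131 in KO. The 4 arrays spanned 1.16-fold, and both KO arrays were above both WT arrays. KO differed from WT by a log2 difference of 0.13 under vehicle and 0.15 under STZ. WT STZ was the lowest array of Slc3a2, as it was of Slc7a8, but by less, at -0.074 from WT vehicle. The log2 difference of Slc7a8 minus that of Slc3a2 was -0.65 there, -0.20 for STZ in KO and -0.13 for KO against WT under vehicle. It was 0.32 for KO against WT under STZ and 0.45 for the difference between STZ effects.

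The summed intensity of 7 fibroblast markers was likewise higher on both KO arrays, at 2915 with vehicle and 3185 with STZ in WT, and 3342 and 3401.5 in KO. Of these 7, 2 were 1.5-fold higher in KO under vehicle and 2 under STZ, in both cases the collagen chains Col1a1 and Col3a1. Col1a1 read 425 with vehicle and 399 with STZ in WT, and 721 and 756 in KO, log2 differences between genotypes of 0.76 and 0.92. For Col3a1 these differences were 0.64 and 0.76. Over the 7 markers the median log2 difference of KO against WT was 0.24 under vehicle, with 5 above 0 and 2 below. Under STZ it was -0.033, with 3 above 0 and 4 below, so the higher sum there was not shared by most of the markers. The sums of endothelial and satellite cell markers were also higher on both KO arrays, and so was that of T cell markers, all under the filter. Endothelial markers summed to 692 with vehicle and 709 with STZ in WT, and 832 and 760 in KO. Satellite cell markers summed to 184 and 188 in WT, and 194 and 195 in KO. For KO against WT under STZ, 4 of 8 endothelial markers were above 0 and 4 below. The part of these cell types in the readings of Slc3a2, and of Slc38a1 below, was not tested.

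Slc43a1 encodes LAT3, which lets branched-chain amino acids and phenylalanine cross the membrane without a heavy chain. Its intensity was 61.2 with vehicle and 67.7 with STZ in WT, and 52.9 and 51.6 in KO. Both KO arrays were below both WT arrays. KO was at 86.4% of WT with vehicle and 76.2% with STZ, log2 differences of -0.20 and -0.37, the lowest of the members in both comparisons. The values ranged from -0.22 to -0.16 and from -0.40 to -0.23 over 9 alternatives each. WT STZ was the highest array and KO STZ the lowest, the same order of arrays as for Klf15. That order was found in 1 of 9 members above the filter and in 8.47% of 13257 genes.

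Slc38a2 encodes SNAT2, the system A transporter that cells make more of when amino acids run short. It read 306 with vehicle and 324 with STZ in WT, and 368 and 292 in KO. KO vehicle was the highest array and KO STZ the lowest. KO exceeded WT by a log2 difference of 0.26 under vehicle. STZ against vehicle was 0.082 in WT and -0.33 in KO, which gave the lowest difference between STZ effects among the members, -0.41. KO against WT under STZ was -0.15, which became 0.036 with quantile normalization.

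Slc38a4 encodes SNAT4, another system A transporter. It read 643 with vehicle and 524 with STZ in WT, and 598 and 478 in KO. Both STZ arrays were below both vehicle arrays. STZ was at 81.5% of vehicle in WT and 79.9% in KO, log2 differences of -0.29 and -0.32. The STZ difference was of like size in both genotypes, and the value in KO less that in WT was -0.029.

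Slc38a1 encodes SNAT1, the third of these transporters, which brings in glutamine and alanine. It lay close to the level filter, which corresponds to an intensity of 5.81, with 5.85 with vehicle and 5.27 with STZ in WT, and 7.41 and 7.11 in KO. Both KO arrays were above both WT arrays, by a log2 difference of 0.22 under vehicle and 0.27 under STZ. By plain intensity KO was at 127% and 135% of WT. Slc38a1, Slc38a2 and Slc38a4 follow each other on chromosome 15 with no protein-coding gene between them in RefSeq. The 3 neighbours were nevertheless unlike in genotype: KO against WT under vehicle was 0.22, 0.26 and -0.10 in that order, and under STZ it was 0.27, -0.15 and -0.13. The last 2 of these turned to 0.036 and 0.070 with quantile normalization.

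Slc7a2 encodes CAT2, a carrier of arginine, lysine and ornithine. It read 70.6 with vehicle and 55.6 with STZ in WT, and 66.6 and 63.9 in KO. As with Slc7a8, WT STZ was the lowest array and the vehicle arrays were the 2 highest. STZ against vehicle was -0.33 in WT and -0.057 in KO on the log2 scale, a difference between STZ effects of 0.27. WT STZ was at 78.8% of WT vehicle, which is short of 1.5-fold. Macrophages also make this carrier, and the summed intensity of 8 macrophage markers was higher in WT STZ, 379 against 310. In KO it was likewise higher with STZ, 409 against 343. For STZ in WT 5 of the 8 markers were above 0 and 3 below, with a median log2 difference of 0.090. The part of macrophages in the Slc7a2 reading was not tested.

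Slc1a5 encodes ASCT2, a sodium-dependent exchanger of glutamine and other neutral amino acids. Its brightest cluster read 47.0 with vehicle and 44.8 with STZ in WT, and 59.8 and 42.3 in KO. KO vehicle stood above the other 3 arrays. KO against WT was 0.33 under vehicle and -0.078 under STZ, while STZ against vehicle was -0.063 in WT and -0.47 in KO. The last value lay below the central 95% of genes in that comparison.

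Slc1a5 was the only member with a second cluster, and its 2 clusters disagreed. The dimmer cluster read 8.23 with vehicle and 6.70 with STZ in WT, and 6.77 and 9.35 in KO, so KO STZ was its highest array. For STZ in KO it stood at 0.32, and the mean of both clusters at -0.075. No direction is therefore drawn for Slc1a5. Adipocyte markers, 5 of 6 matched, had a summed intensity of 160 with vehicle and 169 with STZ in WT, and 196 and 119 in KO. Endothelial markers, 8 of 8, summed to 692, 709, 832 and 760 in the same order. Smooth muscle markers, 5 of 5, summed to 635, 658, 700 and 597. These sums were all highest in KO vehicle, as were the brightest cluster of Slc1a5 and Slc38a2. The adipocyte and smooth muscle sums were lowest in KO STZ, as both genes were, and the endothelial sum was lowest in WT vehicle. The part of these cell types in the readings was not tested.

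Slc1a3 encodes GLAST, or EAAT1, a glutamate and aspartate carrier known mainly from glia. It was under the level filter, at 5.19 with vehicle and 5.22 with STZ in WT, and 5.60 and 5.86 in KO. The readings lie at the level of the median cluster, and its log2 differences ran from 0.0059 to 0.10 in the pairwise comparisons. No difference was detectable at this level.

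Read across the 9 members above the filter, the median log2 difference was 0.010 for KO against WT under vehicle, beside -0.0039 over the 13258 genes. Under STZ it was -0.078 beside -0.048. For STZ it was -0.074 in WT beside 0.0075, and -0.14 in KO beside -0.032. With Slc1a3 added, the 4 medians were 0.038, 0.011, -0.068 and -0.099 in the same order, so the one for KO against WT under STZ changed sign. Of the 10 genes, 9 were below 0 for STZ in KO, where the median of all genes was below 0 too, and 6 for STZ in WT. The share of all genes below 0 was not counted. Among the 9, Slc3a2 and Slc43a1 turned to 0.013 and 0.030 with quantile normalization, and Slc1a5 stood at 0.32 in its dimmer cluster. The values for STZ in KO ran from -0.47 for Slc1a5 to 0.041 for Slc1a3. The genotype comparisons and the STZ comparisons share arrays with each other, so these sets of values are not independent.

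**Figure D3:**
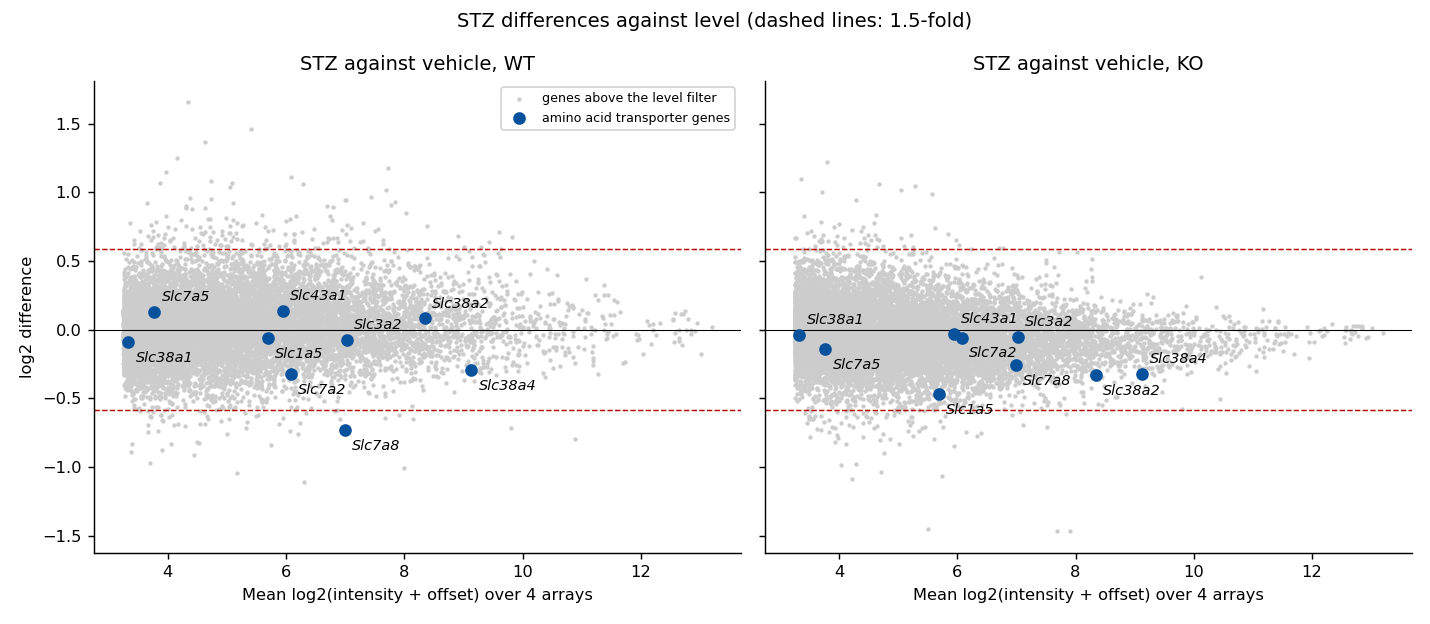
The log2 difference of STZ against vehicle in WT (left) and KO (right) plotted against the mean log2 level over the 4 arrays. Grey points are the 13258 genes above the level filter and blue points the 9 transporter genes among them, with Slc7a8 below the dashed 1.5-fold line in WT and between the lines in KO.

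**Figure D4:**
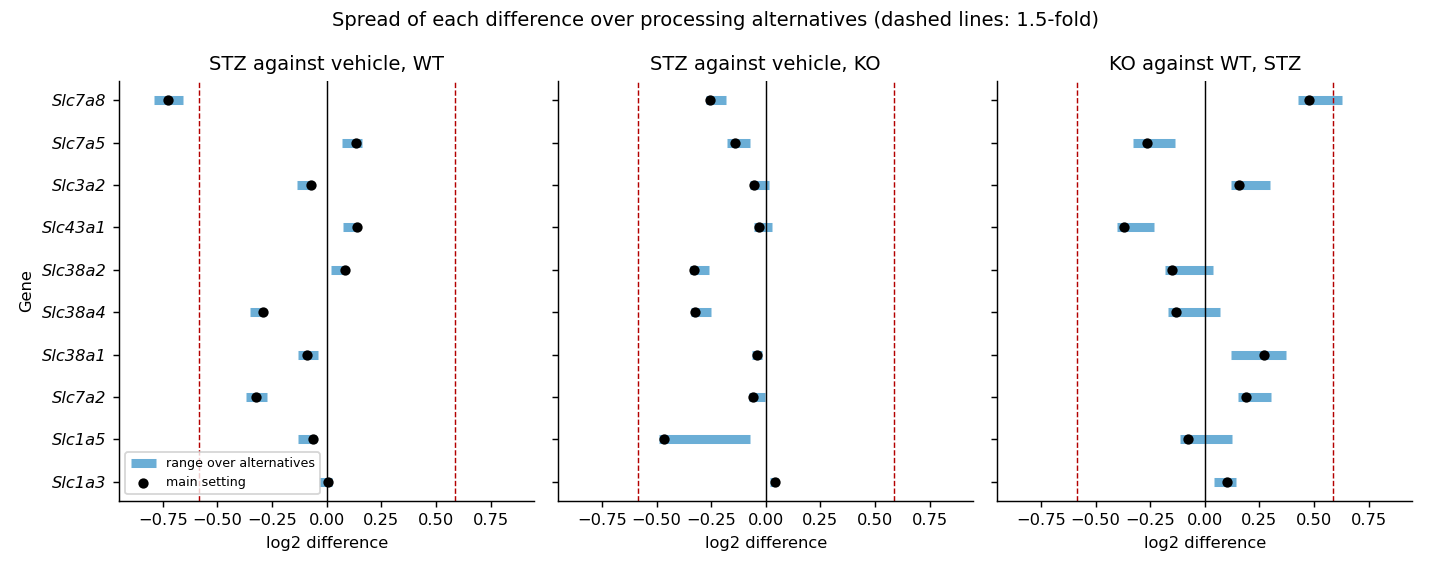
For each gene, the log2 difference under the main setting (black) and its range over 8 or 9 processing alternatives (blue bar) in 3 comparisons, with dashed lines at 1.5-fold. The bar of Slc7a8 for STZ in WT runs from -0.79 to -0.66 and stays beyond 1.5-fold, whereas for KO against WT under STZ it crosses the line.

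The remaining plasma membrane amino acid transporters were read from a list of 35 names, with 34 matched and 16 above the level filter. In all 4 pairwise comparisons 0 of 16 were 1.5-fold higher or lower. Their log2 differences ran from -0.31 to 0.42 for STZ in WT and from -0.48 to 0.33 for STZ in KO. For the difference between STZ effects 2 of 16 were at least 1.5-fold lower, where 3.91% of all genes were. The list median was 0.088 beside -0.048 over all genes, and ran from -0.075 to 0.14 over the alternatives, with a change of sign in 1. These 2, singled out after their values were seen, were Slc38a3 at -0.79 and Slc1a1 at -0.62. Slc38a3 encodes the glutamine transporter SNAT3 and read 109.6 with vehicle and 136 with STZ in WT, and 144 and 102 in KO. Like Slc38a2, it was highest in KO vehicle and lowest in KO STZ. Transporters of lysosomal membranes return amino acids from broken-down protein to the cytosol. Of 8 measured, 0 passed 1.5-fold in any of the 5 comparisons, where 1.10% to 5.67% of all genes did.

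ATF4 is the transcription factor of amino acid shortage, and Slc7a5, Slc3a2 and Slc38a2 are among its known targets. Of 23 other ATF4 targets above the filter, 1 was 1.5-fold higher in KO vehicle than in WT vehicle, where 0.581% of all genes were. In WT STZ against WT vehicle 1 was higher, where 1.27% of all genes were. In both cases it was Nupr1, a small stress-response protein. Nupr1 read 30.2 with vehicle and 48.3 with STZ in WT, and 63.3 and 63.0 in KO, so WT vehicle alone was low. The other ATF4 targets lay within 1.5-fold, and the list medians ran from 0.0081 to 0.077 in the pairwise comparisons, with a change of sign under some settings outside STZ in WT. Of 36 measured genes of amino acid sensing by mTORC1, the kinase complex that leucine activates, 0 passed in any comparison. Among all genes 1.10% to 5.67% passed, depending on the comparison. Their medians were -0.054 for STZ in WT and -0.046 for STZ in KO, and the latter changed sign in 1 alternative.

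Among 14 measured enzymes that use glutamine, glutamate, alanine and arginine, 1 was 1.5-fold higher and 2 were lower for STZ in KO, where 0.445% and 0.656% of all genes were. For KO against WT under STZ 2 were lower, where 2.81% of all genes were. For STZ in WT and for KO against WT under vehicle 0 passed. Nos1, the neuronal nitric oxide synthase of muscle, which uses arginine, read 74.8 with vehicle and 48.7 with STZ in WT, and 98.7 and 57.3 in KO. It was lower after STZ in both genotypes, at -0.58 in WT, just short of 1.5-fold, and -0.75 in KO on the log2 scale. Odc1, the ornithine decarboxylase, read 266, 289, 229 and 149 in the same order, so KO STZ alone was low, at -0.61 against KO vehicle and -0.94 against WT STZ. Gpt, an alanine aminotransferase, read 19.96, 21.01, 13.05 and 21.996, so KO vehicle alone was low, at -0.50 against WT vehicle, and KO STZ was 0.62 above it. Asl, the argininosuccinate lyase, stood at -0.58 in KO STZ against KO vehicle, just short of the threshold, and at -0.62 against WT STZ. These enzymes are described as values of single arrays, like the transporters.

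Slc7a8 was also the only member whose arrays spanned 1.5-fold, and the 3 genes with the most similar profile were sought among 13257 others. Similarity was the Euclidean distance between log2 values centred on each gene's mean over the 4 arrays. The closest was Mir1a-1hg, the host transcript of a muscle microRNA gene, at a distance of 0.050. It read 65.0 with vehicle and 39.1 with STZ in WT, and 67.7 and 53.9 in KO. Next came Mir1190 at 0.10 and Actc1, the cardiac alpha-actin, at 0.12. Actc1 read 2258, 1300, 2181 and 2004 in the same order, so WT STZ was again the lowest array. With 4 arrays, such likeness describes these readings only.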

How the data were processed

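Transcript levels were measured in 4 gastrocnemius samples, 1 array per group. The deposited values are linear intensity values, 1 per transcript cluster and array; how the authors corrected background, summarized probes and scaled arrays was not stated in the sources used here. Per the labels' protocols, 4 ug of total RNA was made into biotin-labelled cRNA. Of 41345 clusters, 23521 had 1 gene symbol, 1814 several and 16010 were unlisted in the platform annotation. Of the first, 23328 matched RefSeq by gene number. Values were taken as log2(intensity + 3.69), the offset being percentile 25 of all values. A gene was read by its brightest cluster, and 13258 genes with a mean above the median cluster were kept. Array medians on this scale lay within 0.035, so no scaling was added. Brighter genes were still shifted. For KO against WT under STZ the median over genes was -0.048 at the main filter and -0.11 with the filter at percentile 75.

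No test was run, since an additive model would take the difference between STZ effects as its error, and a gene was called past 1.5-fold. Alternatives were quantile normalization, median centring, scaling to percentile 75, lowess (fraction 0.4, statsmodels 0.14.6), offsets of 1 and 16, the mean of a gene's clusters, no filter or one at percentile 75, and 2-fold. The members and lists were chosen with earlier results of these data known. The genes named are the members, Klf15, genes of the lists past 1.5-fold in a pairwise comparison (up to 4 a list, 3 for markers) and the 3 nearest profiles. Other genes are said in the text to be singled out after their values were seen. Python 3.11.15 was used.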

Additional observations from a re-analysis of the deposited data

Results flagged for a closer look

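No member is listed here. Listed here are 7 genes of the lists whose STZ effects had opposite sign in the genotypes and lay at least 1.5-fold apart. This difference was not tested for any of them. Each value is the log2 difference of STZ against vehicle in KO, less the same in WT. On this measure 3.91% of the 13258 genes lay past 1.5-fold on the lower side and 1.76% on the higher side. These shares include genes with STZ effects of like sign. The 7 genes named here all lie on the lower, more common side. The share of the 13258 genes with effects of opposite sign was not counted, so the 7 are not shown to exceed the background. Slc38a3 stood at -0.79, from 0.30 in WT and -0.48 in KO. Slc1a1, a glutamate and cysteine carrier, stood at -0.62, from 0.42 and -0.20. Odc1 stood at -0.73, from 0.11 and -0.61. Asl stood at -0.66, from 0.080 and -0.58. Nupr1 stood at -0.62, from 0.62 and -0.0057, the latter close to 0. The adipocyte markers Retn, at -0.80, and Plin1, at -0.78, were 0.041 and 0.14 higher with STZ in WT, while KO values were -0.75 and -0.64. Of the 4 adipocyte markers above the filter, 3 were past 1.5-fold on the lower side. The third was Adipoq, singled out after its values were seen, at 0.20 with STZ in WT and -0.52 in KO. It is not among the 7 because no pairwise comparison took it past 1.5-fold.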

How the results depend on the processing

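Slc7a8 stayed 1.5-fold lower for STZ in WT in 9 of 9 alternatives, between -0.79 and -0.66, and at 2-fold the count of members was 0. The cluster mean and both filter settings are among the 9 but could not move its value. Slc7a8 has 1 cluster, and a filter only keeps or drops a gene. For KO against WT under STZ the count of members was 1 (Slc7a8) with quantile normalization and 1 with lowess, and the same held for the difference between STZ effects, 1 and 1. Over 50 member differences and 435 alternative values, 410 kept direction and side of 1.5-fold, 4 passed it (the Slc7a8 values just named) and 21 changed sign below it. Part of the 410 was fixed in advance. The filter settings leave a member's value as it is, and so does the cluster mean for every member but Slc1a5. The median of the members changed sign in 7 of 45 alternative values, for KO against WT under STZ and for the difference between STZ effects. It covered 10 members, but only 7 with the filter at percentile 75. The change under that filter, for KO against WT under STZ, thus compares unlike sets of members. The mean of both clusters took Slc1a5 for STZ in KO from -0.47 to -0.075. No paired analysis was possible because each group has 1 array.

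The count of all genes past 1.5-fold followed the offset, the filter and the threshold. For STZ in WT it was 228, and 378 with offset 1, 78 with offset 16, 151 with the filter at percentile 75 and 16 at 2-fold. In the same order of settings it was 146, 312, 22, 70 and 11 for STZ in KO, 180, 317, 49, 96 and 13 for KO against WT under vehicle, 484, 711, 200, 348 and 45 under STZ, and 752, 1202, 201, 422 and 51 for the difference between STZ effects. The share of higher calls under STZ was 23.1%, and 38.9% with quantile normalization and 34.9% with lowess. For the difference between STZ effects it was 31.0%, and 43.9%, 42.2% and, with percentile 75 scaling, 44.9%. For STZ in WT it was 74.1%, and 63.9% with quantile normalization and 58.5% with percentile 75 scaling.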

Other observations

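Genes with a solute carrier symbol, leaving out the members and the mitochondrial carriers, numbered 177 above the level filter and include the amino acid transporters of the other lists. For STZ in WT, 2.82% of them were past 1.5-fold, beside 1.72% of all genes, and for STZ in KO 1.69% beside 1.10%. For KO against WT it was 1.13% beside 1.36% under vehicle and 2.82% beside 3.65% under STZ. For the difference between STZ effects it was 9.04% beside 5.67%. The genes below were singled out after their values were seen.

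Slc40a1, the iron exporter ferroportin, read 62.9 with vehicle and 105 with STZ in WT, and 82.3 and 53.2 in KO, a log2 difference of 0.71 for STZ in WT and -0.60 in KO. Slc27a1, a fatty acid transport protein of muscle, read 143, 189.8, 103 and 77.3 in the same order, and KO against WT under STZ was -1.26. Slc2a3, a glucose transporter, was highest in WT STZ, at 18.2, and lowest in KO STZ, at 8.80. Slc22a23 and Slc16a6 were lowest in WT STZ, as Slc7a8 was, at 17.7 and 8.96, with log2 differences from WT vehicle of -0.76 and -0.63. None of these differences has a replicate check.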
